A study of Mus musculus with 35 samples.

Results

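The genes described here are the DNA repair and damage checkpoint genes, a set of 46 named genes that covers base excision, nucleotide excision, mismatch, end joining and recombination repair, the replicative polymerases, the checkpoint kinases, cohesin and securin, and direct reversal of damage. A gene entered when at least 1 probe set of the microarray carried its symbol and no other, and where several did, the probe set with the highest mean log2 level over all 35 arrays stood for it. By that rule 42 of the 46 genes were represented, out of 8251 genes in all, and Pole, Atr, Rev1 and Fanca were not analysed here. The study asked how transcript levels differ between populations and between individual cells of the haematopoietic stem cell compartment of mouse bone marrow. It amplified the 3′ ends of transcripts from 10 cells or from 1 cell by PCR and hybridised them to Affymetrix MG-U74Av2 oligonucleotide arrays.

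Side population (SP) cells are marrow cells that pump out the dye Hoechst, and here they were also Sca-1+ and Gr-1-. The lower SP (LSP) and the upper SP (USP) were sorted as separate regions of that population, and CD8 T lymphocytes (CD3+ CD8+) of the marrow were the differentiated population they were compared with. Each of the 3 populations had 3 ten-cell samples, named by letter, and each sample pooled 4 amplifications of 10 cells and was run on 2 arrays. There were further 12 single SP cells, A to L, taken from the tip of the population, and 5 single-cell equivalents (SCE), which are aliquots of 1 lysate of 40 SP cells and so carry the variation of the amplification but not that of the cells. All cells came from untreated C57Bl/6 mice carrying the CD45.1 allele. The labels name the mice as male except for the USP, and per the study's methods each experiment used the marrow of 1 mouse. The 12 cells and the 5 SCE are not separate animals, so a test between them compares these cells with these aliquots.

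Cells repair DNA by several routes that share few components. Base excision repair removes single damaged bases and seals the nick through XRCC1 and DNA ligase III, nucleotide excision repair cuts out a stretch around a bulky lesion, and double-strand breaks are joined directly by Ku and DNA-PKcs or copied from the sister chromatid by recombination. Replicative polymerases and ligase I are most used in S phase, and cohesin holds the sister chromatids that recombination uses as templates. Haematopoietic stem cells are mostly quiescent, and resting cells lean on excision repair and end joining, since recombination needs a replicated chromosome.

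Levels are log2 intensities on the scale the authors deposited. In the ten-cell samples values below 7 were set to 7, which is called the floor, and the 2 arrays of a sample were averaged. In single cells and SCE no floor was used, and a gene was called detected at a level of 9 or more. The ten-cell samples of the 3 populations had 14% to 18.5% of all 12422 probe sets at 9 or above, and the single cells and SCE 9.61% to 12.6%. Of 12 SP arrays, 9 hold negative values in 24.5% to 32.1% of their probe sets and the other 26 arrays of the series hold none, so results are also given for the arrays with positive values alone. The ten-cell samples matched their labels by CD8 T-cell and SP marker genes. Of 9 CD8 T-cell markers, 8 to 9 were at 9 or above in the CD8 samples and none in an LSP or USP sample, and of 9 SP and stem cell markers 6 to 8 were so in the SP samples and 0 to 1 in the CD8 samples. Of 8 B-lineage markers, 3 were so in CD8 B, 1 in CD8 C, 0 in CD8 D and 0 to 1 in the LSP and USP samples. In the single cells 1 to 6 of the 9 SP and stem cell markers were detected. In bulk samples of this kind fewer cells of a type and less RNA per cell cannot be told apart.

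The promoters of 3 genes are shown because Lig3 carries the clearest difference between single cells and because Apex1 and Pold1 were detected together with it in the cell that held the most repair transcripts. Each is the 250 bases upstream of the RefSeq start site on GRCm38.p6, written 5′ to 3′ along the gene, and capitals mark a CCAAT box (CCAAT) or a GC box (GGGCGG), searched on both strands.
Lig3 (chr11:82780859-82781108, plus strand): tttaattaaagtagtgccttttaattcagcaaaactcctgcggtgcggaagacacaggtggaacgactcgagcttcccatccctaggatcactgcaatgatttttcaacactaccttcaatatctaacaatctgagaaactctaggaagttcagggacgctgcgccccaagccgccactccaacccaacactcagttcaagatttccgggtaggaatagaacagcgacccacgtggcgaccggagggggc
Apex1 (chr14:50924699-50924948, plus strand): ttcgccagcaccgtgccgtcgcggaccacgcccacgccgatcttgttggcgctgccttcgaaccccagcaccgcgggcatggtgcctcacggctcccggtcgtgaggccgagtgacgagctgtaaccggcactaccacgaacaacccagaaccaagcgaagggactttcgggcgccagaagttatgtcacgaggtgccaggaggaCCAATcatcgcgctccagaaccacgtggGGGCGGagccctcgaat
Pold1 (chr7:44548816-44549065, minus strand): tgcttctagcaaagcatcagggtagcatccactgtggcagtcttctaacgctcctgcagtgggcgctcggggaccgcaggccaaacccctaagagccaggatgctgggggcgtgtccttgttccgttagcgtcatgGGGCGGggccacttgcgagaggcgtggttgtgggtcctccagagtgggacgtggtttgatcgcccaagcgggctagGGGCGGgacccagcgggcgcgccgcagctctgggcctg

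Promoter windows were matched for 35 of the 42 genes by symbol, with 43 windows in all. A gene counted when any of its windows held the motif, while the share of all is per window. The 2 are therefore not on a like footing. A GC box stood in 21 of the 35 genes and in 32.7% of all 32851 promoter windows of the same length, and a CCAAT box in 18 of the 35 and in 33.8% of all. The E2F motif, searched as TTTCCCGC, TTTGGCGC, TTTCGCGC or TTTGCCGC, stood in the windows of Brca2, Msh3 and Xrcc6 and in 1.86% of all. CCGGAAG, an ETS motif, stood in 3 of the 35 genes and in 6.91% of all, and TTTGAA, the cell cycle homology element, in 3 of the 35 and in 16% of all. The Lig3 window held none of these letters, the Apex1 window held 1 CCAAT box and 1 GC box, and the Pold1 window 2 GC boxes. These matches are letters in a window and say nothing of which factor binds there.

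In the ten-cell samples the repair genes were unevenly represented. Of the 42, 33 exceeded the floor on 1 or more arrays of ten-cell samples, against 54.9% of all probe sets, and 9 were at the floor on every one of them: Ogg1, Ercc3, Xpa, Msh3, Pms2, Rad54l, Fen1, Rad1 and Mgmt. A second probe set of Xpa left the floor in CD8, with a mean of 7.31. For 16 of the genes the brightest of several probe sets was taken. That choice can raise their share above the floor, so it is not on a like footing with the share of all probe sets. At the other end, Lig3, Ddb1 and Rad21 were at 9 or above in all 9 samples by the probe sets that stand for them. Other probe sets of Lig3 and Ddb1 had lower means. Between the extremes, 15 genes reached 9 in some SP samples but not in all 6, and 22 of the 42 stayed under 9 in every sample. A value at the floor gives a bound on the level and does not show that a transcript was absent.

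**Figure D1:**
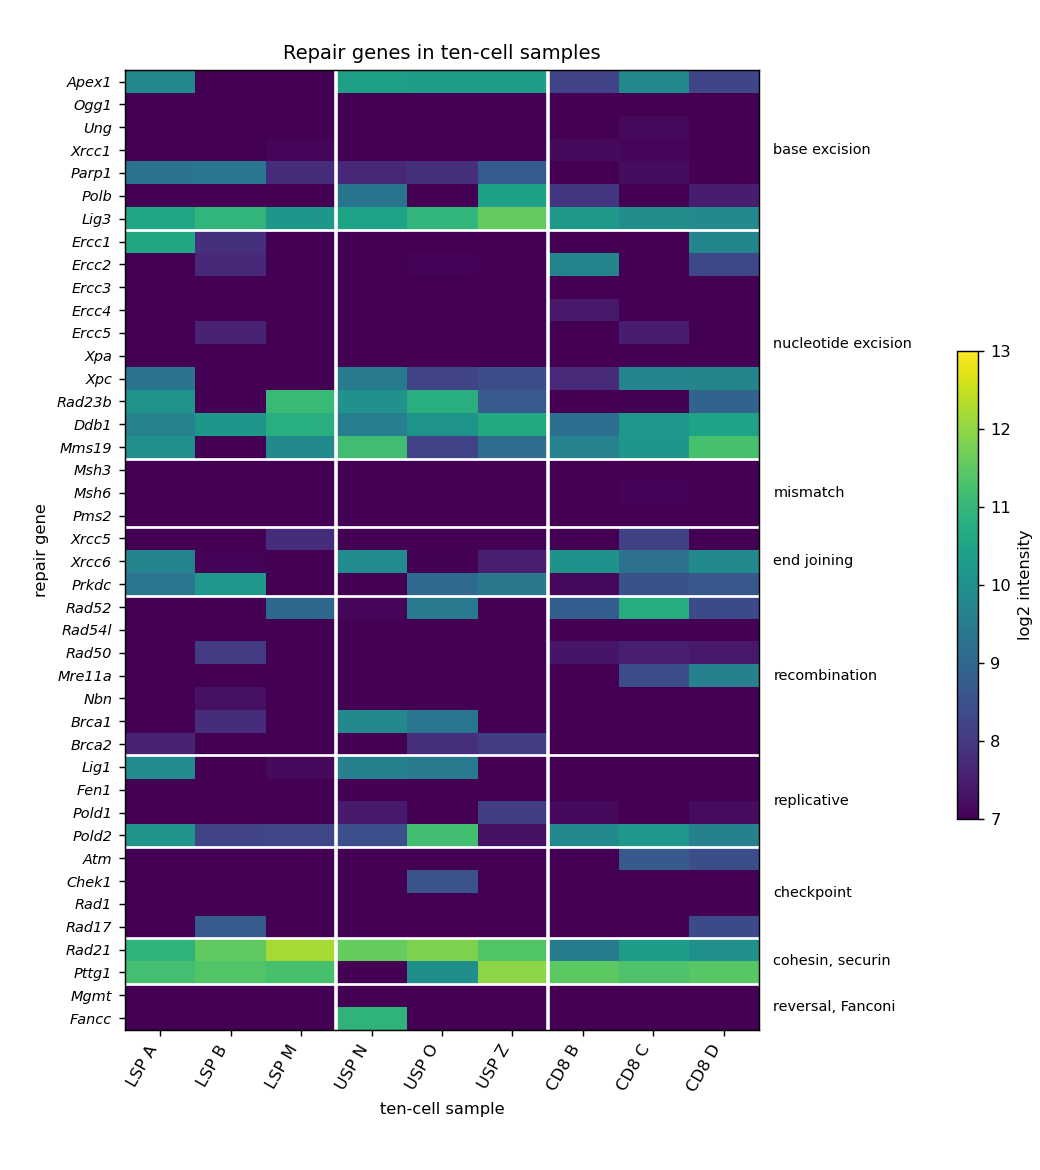
Levels of the 42 repair genes (rows, grouped by pathway) in the 9 ten-cell samples (columns), as log2 intensity from the floor of 7 upward. Lig3, Ddb1 and Rad21 are bright in every column, and the mismatch repair genes are at or near the floor throughout.

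Across populations, Rad21 was the 1 repair gene whose level differed between SP and CD8 cells past the threshold. Rad21 encodes the kleisin subunit of cohesin, the ring that holds sister chromatids together and that is needed for repair from the sister. Its log2 level was 10.90, 11.54 and 12.20 in LSP samples A, B and M and 11.59, 11.81 and 11.37 in USP samples N, O and Z. In the CD8 samples B, C and D it was 9.55, 10.35 and 10.01. All 6 SP samples lay above all 3 CD8 samples. The 6 SP samples averaged 11.57 ± 0.44 (SD) and the 3 CD8 samples 9.97 ± 0.40 (SD), a difference of 1.59 (SE 0.31) on the log2 scale or 3.02-fold, with an adjusted p of 0.0316 by limma.

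That single call stands among 33 repair genes tested, with 2.83% of the 6823 probe sets tested called higher in SP and 5.83% called in either direction, so the share of repair genes called is near that of all probe sets. The call for Rad21 does not hold under every choice: in 8 of 17 alternative fits its adjusted p lay above the threshold, and the range over the 17 was 0.00417 to 0.113. It was 0.113, 0.0589 and 0.105 without CD8 sample B, C or D, 0.0612 without LSP B, 0.065 without USP N 0.0641 without USP O and 0.089 with no filter on low probe sets. On the arrays with positive values alone, which leave 1 LSP, 1 USP and 3 CD8 samples, the difference was 1.40 with an adjusted p of 0.105, where the CD8 samples alone give the spread. The difference kept its direction in all 17, between 1.38 and 1.78.

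No base excision or single-strand break gene passed the adjusted threshold, while Parp1 and Lig3 had the lowest p-values after Rad21 among the genes higher in SP. Parp1, the polymerase that binds strand breaks and marks them with poly(ADP-ribose), was at 9.28, 9.35 and 7.78 in LSP A, B and M and at 7.69, 7.83 and 8.73 in USP N, O and Z. In CD8 it was at the floor in B and D and at 7.21 in C. The SP and CD8 levels of Parp1 do not overlap. The difference was 1.38 (SE 0.41) with an adjusted p of 0.120 in limma. It passed in 2 of 17 alternatives, among them the fit without LSP sample M, at 0.0210. The probe set of Parp1 belongs to a class that can match several transcripts. Among the 33 repair genes Parp1 and Rad21 were the only 2 whose SP and CD8 samples did not overlap, where 11.3% of all probe sets tested did not.

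Lig3, the ligase that closes nicks at the end of base excision repair with its partner XRCC1, had levels of 10.55, 10.95 and 10.17 in LSP A, B and M and 10.48, 10.94 and 11.56 in USP N, O and Z, against 10.24, 9.97 and 9.83 in CD8 B, C and D. The groups overlapped by LSP M alone. The difference of 0.76 (SE 0.27) had an adjusted p of 0.189. Its partner Xrcc1 was between 7.0 and 7.16 in all 9 samples. Apex1, the endonuclease that cuts at abasic sites, was at 9.86 in LSP A and at the floor in LSP B and M, at 10.40, 10.34 and 10.34 in USP N, O and Z, and at 8.20, 9.86 and 8.26 in CD8. Ogg1 and Ung, the glycosylases that remove oxidised guanine and uracil, were at the floor in all SP samples by these probe sets, while another Ung probe set averaged 7.44 in SP and 7.03 in CD8.

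**Figure D2:**
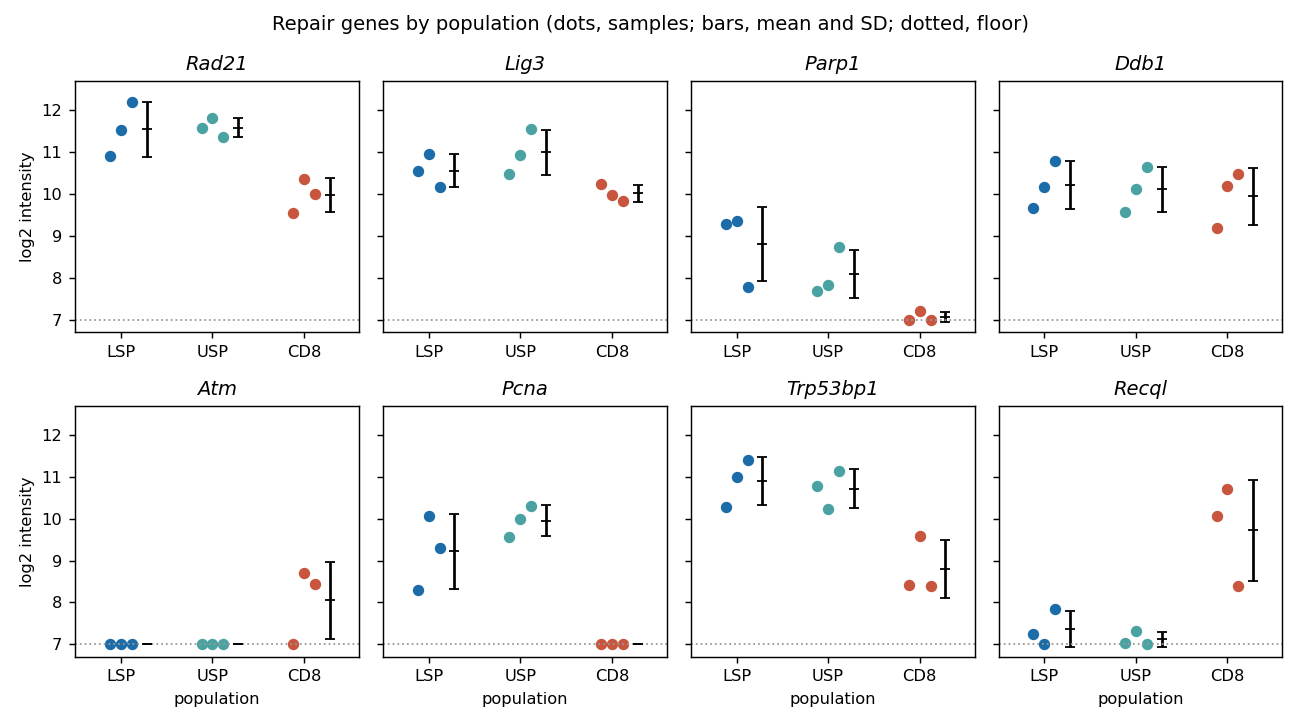
Log2 intensity of 8 repair genes in LSP, USP and CD8 ten-cell samples (dots, 3 per population), with the mean and SD of each population at its right and the floor of 7 as a dotted line. The 6 SP values of Rad21, from 10.90 to 12.20, lie above its CD8 values, and Pcna is at the floor in all 3 CD8 samples.

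In nucleotide excision repair no gene passed the adjusted threshold. Ddb1, the adaptor of the ubiquitin ligase that recognises ultraviolet lesions, was at 9.66, 10.17 and 10.80 in LSP A, B and M and at 9.57, 10.12 and 10.64 in USP N, O and Z. In CD8 it was at 9.18, 10.19 and 10.47, and the populations overlapped in part, with a difference of 0.21 (SE 0.40) and an adjusted p of 0.811. Another Ddb1 probe set averaged 8.86 in SP and 9.29 in CD8, and a further one was at 7.0 in both. Rad23b, which holds the XPC recognition protein in place, ranged from 7.02 to 11.04 in SP with a mean of 9.62 ± 1.51 (SD, n = 6) and was at 7.0, 7.04 and 8.91 in CD8. Its difference of 1.97 (SE 0.99) had an adjusted p of 0.37, and its probe set may also match other transcripts. Xpc itself was between 7.0 and 9.51 in SP and between 7.74 and 9.72 in CD8. Mms19, which supplies iron-sulphur clusters to the XPD helicase, was at 10.02, 7.0 and 9.84 in LSP, at 11.15, 8.22 and 9.17 in USP and at 9.67, 10.16 and 11.26 in CD8. Ercc2, the XPD helicase gene, reached 9 in CD8 B alone, at 9.68, while another Ercc2 probe set averaged 7.0 in SP and in CD8. The nucleases Ercc4 and Ercc5 were at 7.57 or below in all 9 samples, and Ercc1, the partner of Ercc4, reached 10.60 in LSP A and 9.75 in CD8 D.

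Of the mismatch repair genes, Msh3 and Pms2 were at the floor in every ten-cell sample and Msh6 rose to 7.05 in CD8 C only. In end joining, Prkdc, the gene of the catalytic subunit DNA-PKcs, was at 9.36, 10.20 and 7.0 in LSP A, B and M, at 7.0, 9.04 and 9.40 in USP N, O and Z and at 7.13, 8.50 and 8.63 in CD8. Xrcc6, which encodes Ku70, was at 9.24 to 10.06 in all 3 CD8 samples and above 9 in 2 of 6 SP samples, and its difference of -1.69 (SE 0.84) had an adjusted p of 0.367. Xrcc5, which encodes the other Ku subunit, stayed between 7.0 and 8.16.

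In recombination and break sensing, Brca1, which acts at resected breaks, was at the floor in all 3 CD8 samples, at 9.82 in USP N, 9.36 in USP O and 7.79 in LSP B, and at the floor in the other 3 SP samples. Mre11a, the nuclease of the MRN complex that first binds a break, was at the floor in all 6 SP samples and at 7.0, 8.41 and 9.61 in CD8. Its difference of -1.34 (SE 0.50) had an adjusted p of 0.207. It passed the threshold in 3 of 16 alternatives, at 0.0191 in a mixed model on the 18 arrays and 0.0262 with the replicate block. The other, at 0.0206, left out CD8 B, the CD8 sample at the floor like the SP samples. Rad52 was at 8.34 to 10.73 in CD8 and at or below 7.10 in 4 of 6 SP samples. Another Rad52 probe set averaged 7.0 in SP and in CD8. Nbn and Rad50, the other MRN subunits, were at 8.04 or below in all 9 samples.

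The checkpoint genes gave little signal. Atm, the kinase that responds to double-strand breaks, was at the floor in all 6 SP samples and at 7.0, 8.70 and 8.44 in CD8 B, C and D, with a difference of -1.05 (SE 0.35) and an adjusted p of 0.167. It passed in 2 of 16 alternatives, at 0.0435 in the mixed model on the 18 arrays and at 0.000733 without CD8 B. That sample is the CD8 sample at the floor like the SP samples, so leaving it out removes the overlap. Chek1, the kinase downstream of ATR, left the floor in USP O alone, at 8.53. Rad17, which loads the checkpoint clamp, was above the floor in LSP B at 8.75 and CD8 D at 8.35. No checkpoint gene reached 9 in any sample. At an unadjusted p below 0.05, 5 of the 33 repair genes differed between SP and CD8, against 18.5% of all probe sets: Rad21, Parp1 and Lig3 higher in SP and Mre11a and Atm lower. The median difference over the 33 repair genes was -0.05, beside 0.04 over all 6823 probe sets tested.

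Among the replication genes, Lig1, the ligase of Okazaki fragments, was at the floor in all 3 CD8 samples and at 9.92, 9.61 and 9.48 in LSP A, USP N and USP O. In LSP B and USP Z it was at the floor and in LSP M at 7.16. Its difference of 1.36 (SE 0.84) had an adjusted p of 0.494, and another Lig1 probe set averaged 7.0 in SP and in CD8. Pold1, the catalytic subunit of polymerase delta, did not exceed 8.11 in any sample, while the accessory subunit gene Pold2 ranged from 7.27 to 11.18 in SP and from 9.62 to 10.20 in CD8. Pttg1, which encodes securin, the inhibitor of the protease that opens cohesin, was at 11.20, 11.38 and 11.26 in LSP, at 7.0, 10.00 and 11.95 in USP and at 11.48, 11.31 and 11.45 in CD8. The probe sets of Pold2 and Pttg1 may match several transcripts. Fancc, a Fanconi core gene, was at 10.90 in USP N and at the floor in the other 8 samples.

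Proliferation markers stood beside these levels. Of 21 tested, 2 were higher in SP at an adjusted p below 0.05, Top2a and Cdc7, and none lower. Cdc7, a kinase gene of replication origins, was at the floor in all LSP and CD8 samples and at 9.81, 9.52 and 8.94 in USP N, O and Z, so that its difference from CD8 rests on the USP. Of 26 such genes, 3 to 7 were at 9 or above in the LSP samples, 5 to 8 in USP and 1 to 4 in CD8, and their summed log2 level was 194 to 210, 208 to 213 and 186 to 194. Top2a, the topoisomerase of dividing cells, was higher in SP by 2.74 (SE 0.45) with an adjusted p of 0.0167, with all CD8 samples at the floor. Ccna2 ran the other way, at 9.19 to 9.75 in CD8, 7.0 to 7.09 in LSP and 7.97 to 10.38 in USP. Its difference of -1.22 (SE 0.49) had an adjusted p of 0.240 by limma. Cdk1, Aurkb, Tk1, Mcm6 and Kif11 were at the floor in all 9 samples. Of 13 granulocyte and monocyte markers, 2 to 3 were at 9 or above in LSP, 4 to 7 in USP and 0 to 1 in CD8, with summed levels of 98.8 to 102, 105 to 114 and 91 to 94, while Elane, Mpo, Ctsg, Csf1r and Itgam were at the floor in all 9 samples. S100a8, a granulocyte calcium-binding protein gene, was the 1 gene of that list called, at a mean of 11.09 in SP and 7.31 in CD8 with an adjusted p of 0.00572. The part of these cells or states in the repair gene levels was not tested.

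A wider list of other repair genes gave 3 calls. Of 92 genes listed, 61 had a probe set of their own and 53 could be tested, of which 2 were higher and 1 lower in SP at an adjusted p below 0.05, with a median difference of 0.21 over the 53. These 3 make 5.66% of the 53, near the 5.83% of all probe sets called in either direction. Pcna, the sliding clamp of DNA synthesis and of its repair, was at 8.29, 10.07 and 9.29 in LSP A, B and M and at 9.56, 9.99 and 10.29 in USP N, O and Z, with all 3 CD8 samples at the floor. The difference of 2.58 (SE 0.37, adjusted p 0.00949) is therefore a lower bound, and it depends on the floor, with an adjusted p of 0.0544 at a floor of 8. Trp53bp1, whose protein gathers at breaks and favours end joining, was at 10.28 to 11.41 in LSP, 10.23 to 11.15 in USP and 8.40 to 9.59 in CD8, with no overlap and a difference of 2.01 (SE 0.39, adjusted p 0.0312). Recql, a RecQ family helicase gene, ran the other way, at 10.06, 10.71 and 8.38 in CD8 B, C and D and at 7.0 to 7.84 in SP, with a difference of -2.48 (SE 0.49, adjusted p 0.0344). The call for Trp53bp1 was lost in 7 of 17 alternatives and that for Recql in 11 of 17.

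Between the lower and upper SP no repair gene passed the adjusted threshold in limma, and 0.103% of all 6823 probe sets did. At an unadjusted p below 0.05 there were 2 of 33 repair genes, Apex1 and Polb, beside 5.99% of all probe sets, and the mixed model on the 18 arrays called none either. The share is near that of all probe sets. Apex1 was lower in LSP by 2.41 (SE 0.84) with an adjusted p of 0.716, and LSP A, at 9.86, lay close to the lowest USP sample, at 10.34. Polb, the polymerase that fills the gap, was at the floor in all 3 LSP samples and at 9.34, 7.0 and 10.44 in USP N, O and Z, a difference of -1.93 (SE 0.80) with an adjusted p of 0.827. Cdc7 of the proliferation markers differed between these regions, lower in LSP with a difference of -2.42 and an adjusted p of 0.0197. Of the 33 repair genes, 12 had the higher mean in LSP and 16 in USP. The other 5 were at the floor in every LSP and USP sample, so their levels could not be compared.

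In single SP cells, 19 of the 42 repair genes were detected in at least 1 of the 12 cells, a share of 45.2%, beside 33.9% of all probe sets. These shares are not on a like footing, since repair genes with several probe sets entered by their brightest and the other share counts every probe set. None was detected in all 12 cells, as were 1.48% of all probe sets. Of the 19 genes, 9 were detected in 1 cell only, as were 32.7% of the 4215 probe sets detected in at least 1 cell. The 9 were Xrcc1, Parp1, Ercc5, Xrcc5, Rad50, Nbn, Brca1, Lig1 and Pold1. Rad21 was detected in 8 cells, Lig3 in 6, Ddb1 in 5 and Pold2 in 4. By the probe set that stands for each gene, no mismatch repair or checkpoint gene was detected in any cell, nor were Mgmt and Fancc. Counting any probe set of a gene, 21 of the 42 were detected in at least 1 cell, with Msh3 at 10.1 in cell A and Ung at 12.5 in cell E added by their other probe sets. Base excision repair had 5 of 7 genes detected in some cell, nucleotide excision repair 4 of 10, end joining 1 of 3, recombination 4 of 7 and the replicative genes 3 of 4.

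**Figure D3:**
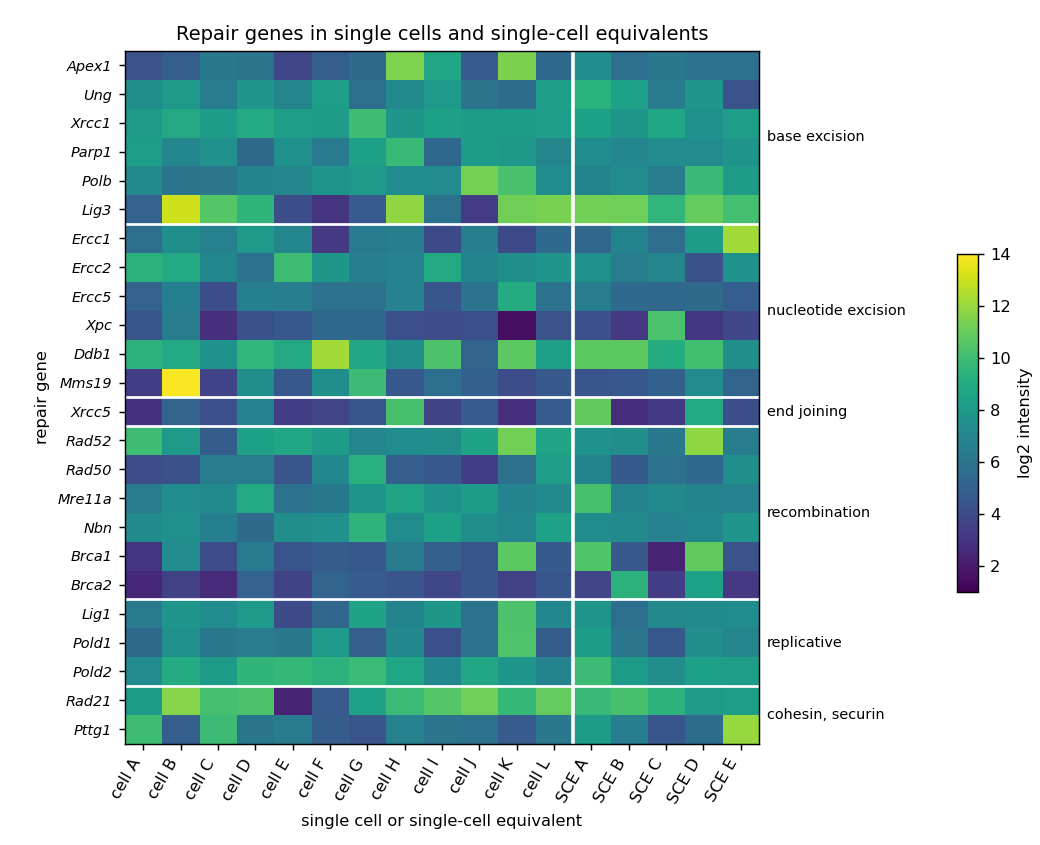
Log2 intensity of the repair genes detected in at least 1 single cell or SCE (rows, by pathway) in 12 single SP cells and 5 SCE (columns). Lig3 is bright in 6 cells and all 5 SCE and dark in the other 6 cells, and cell K has the most bright rows.

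Lig3 divided the 12 cells into 2 groups of levels with a wide gap between them. It was detected in cells B at 13, C at 10.6, D at 9.5, H at 11.8, K at 11.2 and L at 11.4. In cells A, E, F, G, I and J its level lay between 3.0 and 5.9, which on the linear scale is an intensity of 8.1 to 60.4, against 717 to 8460 in the first 6. The 5 SCE were at 11.2, 11.1, 9.6, 11 and 10.1, so no aliquot of the pooled lysate fell into the low range. The SD was 3.76 over the 12 cells and 0.72 over the 5 SCE.

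The spread between single cells was compared with that between SCE by an exact 1-sided permutation test on the absolute deviations from each group's median. For Lig3 its p was 0.000162, the smallest the 6188 assignments allow, and its adjusted p was 0.0296. It was the 1 repair gene of 19 tested that passed, where 0.546% of 4215 probe sets did. Linear models also called Lig3, but on the same deviations and the same probe sets, so they add no separate support. The adjusted p stood close to the threshold with 1 SCE fewer, at 0.0463 to 0.0482 without A, B, C or E and 0.0503 without SCE D. Without cell K it was 0.382 with an exact permutation p of 0.00572, and no probe set was then called of 4084. With 12 cells the median of Lig3, 7.70, lay in the gap between its levels, so every cell deviated more than any SCE. With an odd number of cells the median falls on 1 cell, which then does not deviate. That change therefore does not measure the part of cell K. The share of all probe sets at 9 or above was 9.61% to 12% in the 6 cells with Lig3 and 9.65% to 11.3% in the 6 without it.

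A different Lig3 probe set did not show this division. It was at 11.5 in cell C and below 9 in the other 11 cells and in all 5 SCE, and near the floor in the ten-cell samples, with means of 7.03 in SP and 7.0 in CD8. The 2 probe sets therefore disagree, and which of them reports the ligase more faithfully was not tested. The values of Lig3 above are those of the brighter one.

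Rad21 was the repair gene detected in most cells. Its level was 8.2 in A, 11.6 in B, 10.2 in C, 10.4 in D, 2.3 in E, 4.7 in F, 8.4 in G, 9.9 in H, 10.6 in I, 11.1 in J, 9.7 in K and 10.9 in L. The 4 cells without detectable Rad21 also lacked Lig3, 2 cells held Rad21 alone, 6 held both and none held Lig3 alone. Across the 12 cells Pearson's r between both genes was 0.59 and Spearman's rho 0.50, a description only, since the 2 values of a cell share its amplification. In the SCE Rad21 was at 9.8, 10.2, 9.4, 8.0 and 8.3. Its SD was 2.80 over the cells and 0.97 over the SCE, and the spread test gave an exact permutation p of 0.181 and an adjusted p of 0.550.

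**Figure D4:**
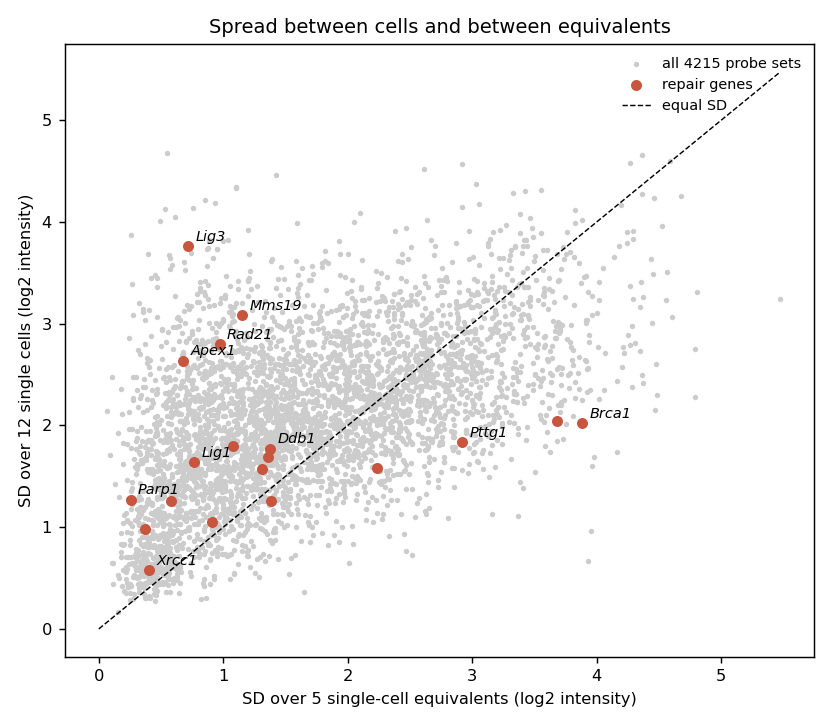
SD of the log2 intensity over 12 single cells (vertical) against that over 5 SCE (horizontal) for all 4215 probe sets detected in at least 1 cell (grey) and the 19 repair genes among them (red), with equality dashed. Lig3 lies far above the line at 3.76 against 0.72, and Brca1 and Pttg1 lie below it.

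The biological proportion estimates the part of the variance among single cells that exceeds the variance among SCE, by maximum likelihood, and runs from 0 to 1. It was 0.5 or more for 10 of the 19 repair genes, with 41.6% of all 4215 probe sets at that level. Among these 10, only Lig3 and Rad21 were detected in any SCE. For the others the variance among SCE is that of levels below detection. Their proportions may therefore not be set against the variation of an amplified transcript. Entry by detection in a single cell favours genes that vary between cells, and it left out the 5 genes detected in SCE alone, whose SD was 0.88 to 1.51 over the cells and 1.49 to 3.07 over the SCE. The count is given as a description. The highest were Lig3 at 0.978, Parp1 at 0.964, Apex1 at 0.942 and Rad21 at 0.896, followed by Mms19 at 0.880, Nbn at 0.878, Ercc5 at 0.811 and Lig1 at 0.810. It was 0 for Ercc2, Xrcc5, Rad52, Brca1 and Pttg1, where the SCE varied more than the cells. The median was 0.53 over the 19 genes and 0.35 over all probe sets. Besides Lig3, Parp1 passed the spread test before adjustment, with an exact permutation p of 0.00711 and an adjusted p of 0.222, so that 2 of 19 repair genes did, beside 12.5% of all probe sets. Its SD was 1.27 in cells and 0.26 in SCE, although it was detected in cell H alone, at 9.8.

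The study itself listed 8 of these genes under DNA repair among transcripts of high spread in these same cells, so their spread here is no independent evidence. Of those, 7 had a probe set, and 4 of the 7 had a biological proportion of 0.5 or more. These were Apex1 at 0.942, Parp1 at 0.964, Mms19 at 0.880 and Lig1 at 0.810, none of them detected in an SCE by these probe sets. Pold1 was at 0.430, and Ercc2 and Pttg1 were at 0. The list of the study rests on a much higher cut, on RMA values and on present calls in several cells. The count of 4 is therefore not a check of that list. Apex1 was at 11.5 in cell H and 11.4 in cell K and at 3.8 to 8.7 in the others, with the 5 SCE between 5.7 and 7.4. Mms19 was at 13.9 in cell B and 9.9 in cell G and from 3.4 to 7.5 elsewhere, and its SCE lay between 4.4 and 7.3. Ercc2 was detected in cells A at 9.4 and E at 10.0 and in no SCE. Another Ercc2 probe set was detected in no cell, at 7.1 in cell A and 8.2 in cell E. Pttg1 was detected in cells A at 10.0 and C at 9.9, and in SCE E at 12, where the other SCE lay between 4.5 and 8.2. Another Pttg1 probe set disagreed, at 3.7 in cell A and 6.6 in cell C and detected in cell E alone, at 9.6.

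Cell K held more repair transcripts than any other cell. It had 10 of the 42 genes at 9 or above, where the other 11 cells had 2 to 5, with a median of 3. The 10 were Apex1 at 11.4, Polb at 10.3, Lig3 at 11.2, Ercc5 at 9.0, Ddb1 at 10.7, Rad52 at 11.2, Brca1 at 10.7, Lig1 at 10.4, Pold1 at 10.4 and Rad21 at 9.7. Ercc5, Brca1, Lig1 and Pold1 were detected in no other cell. By their other probe sets Ercc5, Lig1, Pold1, Rad52 and Lig3 were not detected in cell K, at 5.0, 5.1, 2.9, 1.4 and 3.8. Ddb1 was at 9.9 there by another probe set and at 2.6 by a further one. Which probe set reports each gene more faithfully was not tested. Lig1 and Pold1 act in DNA replication as well as in repair.

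Proliferation markers were also most numerous in cell K, with 7 of 26 detected, against 1 to 5 in the other cells. Mki67, the antigen of cycling cells, was at 13.1 there, Rrm1 of nucleotide synthesis at 11.5, the helicase genes Mcm2 and Mcm7 at 10.0 and 9.9, and Ccna2, the S and G2 phase cyclin, at 9.2. Of the wider repair list cell K held 11 genes, among them the clamp loader gene Rfc5 at 12.1, and the other cells 2 to 10. The array of cell K had 12% of all probe sets at 9 or above, the most of the 12 cells, where the others had 9.61% to 11.3%. The part of proliferation and of total signal in the repair count of cell K was not tested. Without cell K, 15 repair genes were detected in at least 1 cell.

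**Figure D5:**
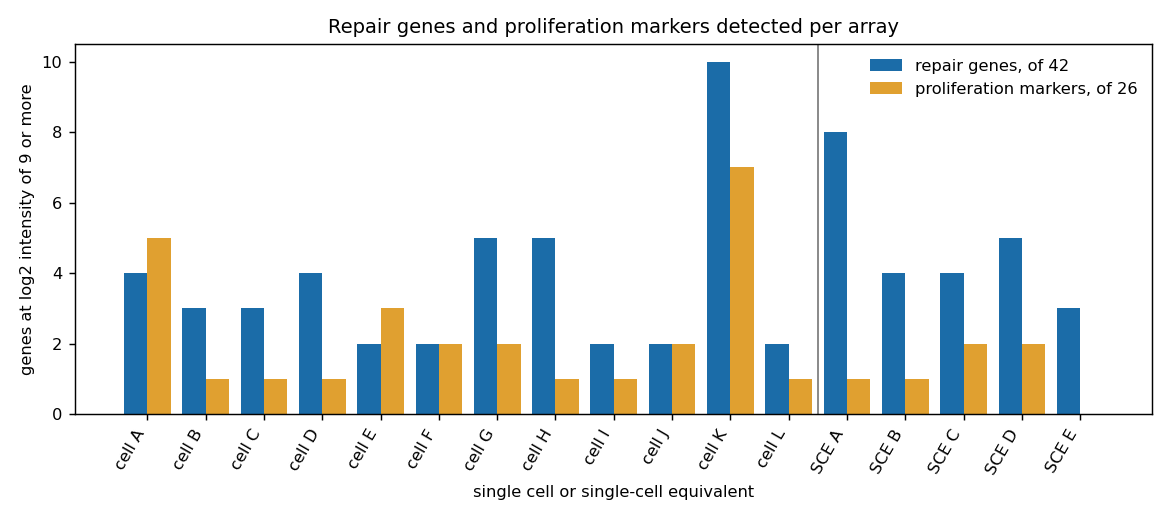
Number of the 42 repair genes and of 26 proliferation markers at a log2 intensity of 9 or more in each of 12 single SP cells and 5 SCE. Cell K stands out with 10 repair genes and 7 markers, while SCE A has 8 repair genes and 1 marker.

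The other genes with a signal in single cells did not separate cells from SCE. Ddb1 was detected in 5 cells, at 12.2 in F, 10.7 in K, 10.4 in I, 9.6 in D and 9.4 in A, and in 4 of 5 SCE. By another probe set Ddb1 was detected in 2 cells, F and K, and in 3 SCE, and by a further one in no cell and no SCE. Pold2 was detected in 4 cells, at 9.3 to 9.9, and in SCE A. Xrcc1 lay between 7.9 and 9.9 in the 12 cells and between 7.6 and 8.6 in the SCE, the lowest SD over cells of the 19 genes. Polb was detected in cells J at 11.3 and K at 10.3 and in SCE D at 9.8, and Xrcc5 in cell H at 10.2 and SCE A at 10.8. Brca1 was at 10.7 in cell K and at 10.4 and 10.8 in SCE A and D, and at 7.3 or below in the other cells.

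Of the 42 genes, 14 were detected in at least 1 SCE, and 5 of them, Ung, Ercc1, Xpc, Mre11a and Brca2, in no single cell by the same probe set. No repair gene differed in mean between single cells and SCE by limma, at an adjusted or at an unadjusted p below 0.05, while 0.0474% of 4215 probe sets passed the adjusted threshold. Lig3 had the widest difference, -2.78 (SE 1.59) on the log2 scale for cells minus SCE, with an adjusted p of 0.946. Rad23b and Prkdc were at 9 or above in 4 of 6 SP ten-cell samples each but in no single cell and no SCE, where Rad23b ranged from 3.7 to 8.6 and Prkdc from 2.9 to 8.4. Ten-cell and single-cell arrays were processed apart, and no test was made between them.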

How the data were processed

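The authors deposited 1 value per probe set and array on a linear intensity scale, with the 2% trimmed mean of every array at 250. The paper's methods describe RMA values on a log2 scale, which these are not. The program behind the deposited intensity is not given in the sources used here. Of 12488 probe sets, 66 controls were left out. Of the other 12422, 10833 had 1 gene, 396 several and 1193 none listed in the platform's gene table. log2 levels of the deposited intensities were floored at 7 for ten-cell samples, and their 2 arrays averaged. The duplicate arrays correlated at 0.953 to 0.994.

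limma 3.58.1 (R 4.3.3) fitted LSP, USP and CD8 together over 6823 probe sets, those exceeding the floor on 1 or more arrays, with SP as the mean of LSP and USP. Single cells and SCE were compared over 4215 probe sets detected in at least 1 cell. p-values were adjusted by Benjamini-Hochberg, with a threshold of 0.05. Both steps were tested on simulated data. Alternatives were floors of 6 and 8, quantile normalization, filters, detection levels of 8 and 10, fits on single arrays and leaving out samples. Genes with values in every sample were those called, listed by the study or leading their pathway, with others by range. Further genes were named after their values were seen. The genes, lists and settings were chosen with earlier results of these data known. Array number, not read depth, limits the precision.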

Additional observations from a re-analysis of the deposited data

Results flagged for a closer look

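Among the 5 SCE, 5 of the 42 repair genes had 1 aliquot that stood apart from the other 4 by the Dixon criterion, which flags about 1 in 20 groups by chance. That is 11.9% of the genes, where 8.5% of all 12422 probe sets were so flagged in these 5 SCE. Xpc was at 10.33 in SCE C, where the others lay between 3.10 and 4.18. Rad52 was at 11.77 in SCE D, with the others between 6.27 and 7.69, and Mre11a at 10.22 in SCE A, with the others between 6.76 and 7.23. Mms19 was at 7.29 in SCE D against 4.45 to 5.17, below the detection level of 9 in all 5 by this probe set, while another reached 9.21 in 1 SCE. Ercc4 was low in SCE D, at 3.42 against 5.31 to 5.83, also below detection. The ten-cell groups of 3 and the 12 single cells were not examined in this way.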

How the results depend on the processing

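The count of repair genes that differed between SP and CD8, 1 as reported, was 0 with no filter, 3 in the mixed model on 18 arrays, 2 with the replicate block on 18 arrays, 5 at an unadjusted p and 7 on the arrays with positive values alone, where 1 LSP and 1 USP sample are assumed to vary like the CD8 samples. Of all 6823 probe sets, 398 were called as reported, 661 in the mixed model and 639 with the replicate block. At an unadjusted p the share was 18.5%. The arrays with positive values alone called more probe sets than any of these settings, out of fewer tested. The higher counts of repair genes thus came with more calls among all probe sets and do not show a stronger result for repair genes. Leaving out 1 sample at a time gave 0 to 2 repair genes. With the replicate block Mre11a joined Rad21, and the arrays numbered 1 and 2 are technical repeats of a sample, not pairs of animals. Between LSP and USP the count of 0 became 2 at an unadjusted p, beside 5.99% of all probe sets. The arrays with positive values alone compare 1 sample with 1, with the spread taken from CD8, and so say nothing of LSP against USP. The wider spread of 1 gene in single cells became 2 genes at an unadjusted p, 0 to 1 without 1 SCE, and 0 without cell K, a choice made after seeing the data. At a detection level of 10 the biological proportion was 0.5 or more in 5 of 11 genes and the number of genes detected in at least 1 cell was 11. No repair gene was detected in all 12 cells under any alternative, and none differed in mean between cells and SCE. The cause of these shifts was not tested, beyond the fewer samples or genes that an alternative holds. With 3 samples per population, values at the floor limit what could be compared.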
